A study of Rattus norvegicus with 32 samples.

Results

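Livers of male Wistar Kyoto (WKY) rats that breathed filtered air and no ozone were compared at 2 harvest times, the end of the second daily exposure (called day 2 here) and 18 h after it. The groups were taken from the sample titles as deposited, 5 arrays at each time, which is 10 of the 32 arrays of the series. All 10 came from rats of 10 weeks and 250 to 300 g that sat in filtered air for 6 h per day on 2 days. The whole study set such rats beside others that inhaled ozone, a reactive air pollutant, at 1 ppm for 6 h per day, and livers were taken at the end of day 1, at the end of day 2, or 18 h after day 2. The comparison asks how liver RNA changes between these times without ozone. The later harvest fell 24 h after the start of the second exposure, so if exposures began at one hour each day it was 6 h earlier in the day than the day 2 harvest. The labels used here give neither clock hours nor access to food, so time of day, feeding and handling in the chambers cannot be told apart in this design.

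Background to the genes is well established. In hepatocytes, the activators Bmal1 and Clock drive genes such as Dbp and Nr1d1, whose products feed back on the clock, so the transcripts of the loop rise and fall over the day. Chaperones of the heat shock family are driven by heat shock factor 1, which binds repeats of a short element in their promoters, and their level in liver follows body temperature over the day, while the RNA-binding proteins Cirbp and Rbm3 are raised by cooling. Meals also drive synthesis of fatty acids and cholesterol through the SREBP factors, and fasting drives fatty acid oxidation through the receptor PPAR-alpha.

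The arrays report probe-set intensities, and levels below are log2(intensity + 16), which understates the fold change of dim genes. The 10 arrays had median intensities between 153.6 and 160.6 and correlated with each other at 0.975 to 0.996. Markers of hepatocytes summed to 62962 to 64589 intensity units on day 2 and 62679 to 65681 at 18 h. The ratio of 3' to 5' signal for beta-actin, a sign of RNA integrity, was 2.36 to 2.74 on day 2 and 2.16 to 2.65 at 18 h. Some arrays lay apart from their label when each was compared, by its deviations from the mean of all arrays over 13437 genes, with the mean of the other arrays of each group. Day 2 replicate 5 correlated at -0.51 with its own group and 0.59 with the ozone livers of day 2. At 18 h, replicate 1 correlated at 0.26 with its own group and 0.69 with the ozone livers of 18 h, and replicate 5 at 0.10 with its own group and 0.60 with the air livers of day 1. Day 2 replicates 1 and 2 lay nearer to air livers of day 1 (0.65 and 0.59) than to their own group (-0.03 and 0.28). Replicate 3 of 18 h correlated at 0.10 with its own group and 0.12 with the ozone livers of 18 h. Results are therefore also given without day 2 replicate 5 and 18 h replicates 1 and 5, called the 3 arrays apart. These were picked after their values were seen, and for lying near other groups, by no fixed cutoff, and other arrays nearer to another group were kept. The counts and p-values of that fit therefore describe the 7 air arrays that remain and are no independent test. Whether each array stands for its own rat is not stated in the labels, so p-values measure the spread between samples, which may be technical, and the number of arrays limits their precision.

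Few genes passed the test. With the brightest probe set standing for each gene, 6 of 13437 genes rose (0.0447%) and 2 fell (0.0149%) at an adjusted p below 0.05 in limma, 0.0595% in all, and 4 of the 6 that rose were cytosolic chaperones or their cofactors. At an unadjusted p under 0.05 there were 672 genes higher (5%) and 439 lower (3.27%). The median size of the difference over all genes was 0.04 on the log2 scale. Groups that did not overlap were found for 77 genes higher (0.573%) and 69 lower (0.514%) at 18 h.

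Heat shock factor targets held 4 of the 6 genes that rose. Of 19 measured genes of this list, 4 rose and 0 fell, 17 were higher at 18 h and 2 lower, and the median log2 difference was 0.25, beside -0.01 over all genes, of which 44.1% were higher. The 4 that rose were Hsph1, Hspb1, Stip1 and Hsp90ab1. Without the 3 arrays apart, 4 rose and the median was 0.21, with 75 genes in all rising (0.558%). With 1 air array left out, 0 list members passed without day 2 replicate 3, day 2 replicate 4 or 18 h replicate 2, 2 rose without 18 h replicate 1 or 4, 3 without day 2 replicate 2 or 5 or 18 h replicate 3, and 6 without day 2 replicate 1 or 18 h replicate 5. The median lay between 0.22 and 0.28 in these 10 fits, with no member falling.

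The promoters of 3 of these genes are shown because they carry the element that heat shock factor binds. They are RefSeq sequences of build GRCr8, 300 bases each, read 5′ to 3′ on the strand of the gene, with the start site at base 251. Capitals mark heat shock elements of 2 or 3 units, searched as GAANNTTC or TTCNNGAA and, for 3 units, GAANNTTCNNGAA or TTCNNGAANNTTC. Hsph1 lies on the forward strand at chr12:10427118-10427417, Hspb1 on the reverse strand at chr12:26432252-26432551, and Stip1 on the reverse strand at chr1:213657605-213657904.
Hsph1: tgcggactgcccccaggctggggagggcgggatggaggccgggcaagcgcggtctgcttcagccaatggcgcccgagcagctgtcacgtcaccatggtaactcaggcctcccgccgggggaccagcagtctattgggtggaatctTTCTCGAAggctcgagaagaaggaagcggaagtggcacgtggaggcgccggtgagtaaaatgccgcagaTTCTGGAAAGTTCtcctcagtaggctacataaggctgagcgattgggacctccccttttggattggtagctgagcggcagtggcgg
Hspb1: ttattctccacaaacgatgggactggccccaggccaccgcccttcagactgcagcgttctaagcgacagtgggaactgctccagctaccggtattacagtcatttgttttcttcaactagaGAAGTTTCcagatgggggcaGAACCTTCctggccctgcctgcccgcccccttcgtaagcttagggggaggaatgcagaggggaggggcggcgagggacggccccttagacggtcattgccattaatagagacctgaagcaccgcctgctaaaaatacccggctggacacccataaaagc
Stip1: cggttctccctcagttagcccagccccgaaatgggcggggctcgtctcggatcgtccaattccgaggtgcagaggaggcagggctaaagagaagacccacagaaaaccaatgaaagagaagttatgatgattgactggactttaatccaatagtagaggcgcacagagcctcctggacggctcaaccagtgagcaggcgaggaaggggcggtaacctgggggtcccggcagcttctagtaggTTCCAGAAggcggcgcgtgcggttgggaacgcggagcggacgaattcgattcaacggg
The Hsph1 promoter holds a run of 3 units at -36 to -24 from the start site and a pair at -105 to -98. The Hspb1 promoter holds pairs at -129 to -122 and -109 to -102, and the Stip1 promoter a pair at -8 to -1. No pair was found in the 300 bases of Hsp90ab1. A promoter was found for 18 of the 19 measured list members, of which 13 held a pair and 6 a run of 3 units, beside 15.9% and 0.798% of all 33469 promoters in the table. Other motifs were searched too. The Hsph1 promoter holds an E-box (CACGTG) at -70 to -65, left in lower case here. That of Hsp90ab1 holds a cAMP response element (TGACGTCA) at -180 to -173. Each of these 2 motifs was held by 1 promoter of the list, beside 6.42% and 1.83% of all promoters. A match is a description of letters, not a measured binding site.

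Hsph1, a cytosolic chaperone of the Hsp110 family that recharges Hsp70, stood at 8.48, 8.33, 8.28, 8.20 and 7.86 in day 2 replicates 1 to 5 and at 9.10, 9.19, 8.91, 8.93 and 8.77 in 18 h replicates 1 to 5. Every 18 h array lay above every day 2 array. The rise was 0.75 ± 0.13 (log2 difference ± SE, n = 5 and 5, limma adjusted p = 0.016), or 1.68-fold. Its second, dimmer probe set rose by 0.56 ± 0.10 (adjusted p = 0.016).

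Hspb1 encodes the small heat shock protein Hsp27, which holds unfolding proteins in solution. It stood at 8.69, 8.35, 8.16, 8.20 and 8.19 on day 2 and at 9.09, 9.03, 8.87, 8.87 and 8.79 at 18 h. The groups did not overlap, although day 2 replicate 1 came close to the lowest 18 h array, and the rise was 0.61 ± 0.11 (limma adjusted p = 0.016), or 1.53-fold.

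Stip1, the adaptor that joins Hsp70 to Hsp90, stood at 8.58, 8.61, 8.53, 8.41 and 8.33 on day 2 and at 8.99, 8.85, 8.81, 8.86 and 8.77 at 18 h. It rose by 0.36 ± 0.07 (limma adjusted p = 0.016), with every 18 h array above day 2. Hsp90ab1, the constitutive cytosolic Hsp90, stood at 11.34, 11.19, 11.13, 10.95 and 10.82 on day 2 and at 11.65, 11.64, 11.50, 11.48 and 11.44 at 18 h. It rose by 0.46 ± 0.09 (limma adjusted p = 0.037), again without overlap. A second probe set of Hsp90ab1 differed by 0.15 ± 0.12 (adjusted p = 0.9) and overlapped between the groups.

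**Figure D1:**
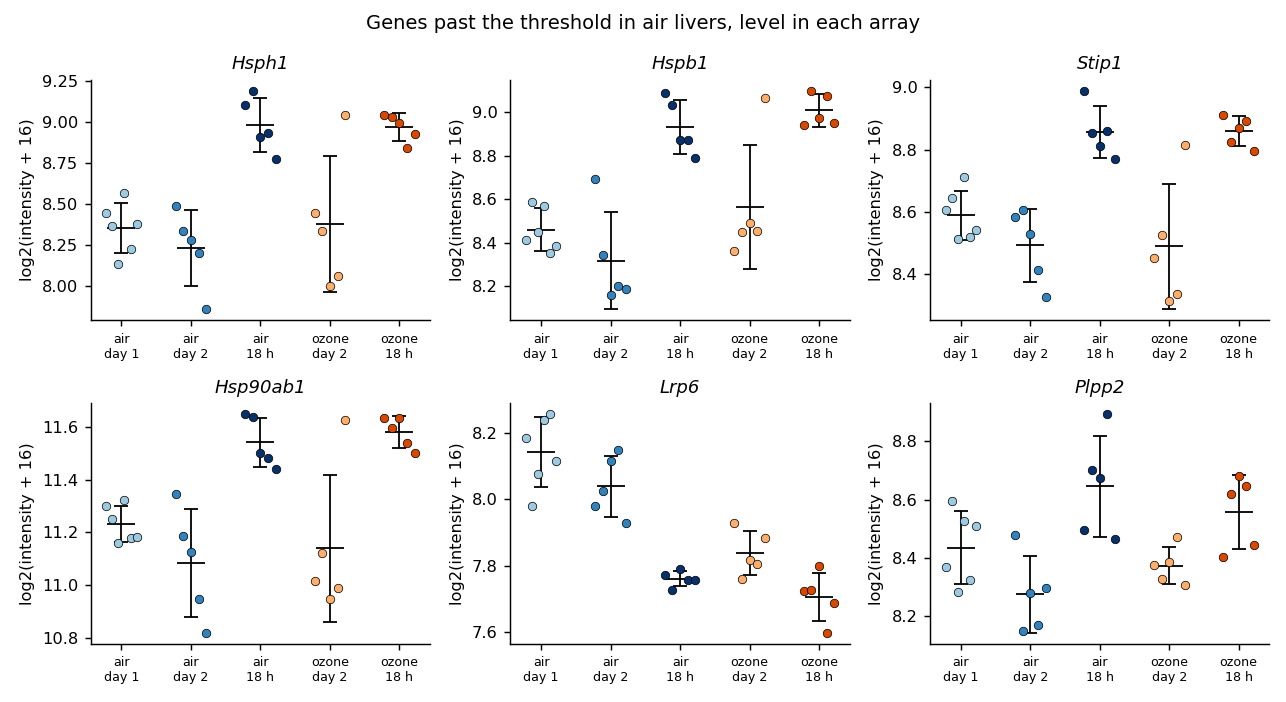
Level in each array, log2(intensity + 16), of 6 of the 8 genes past the threshold, for air and ozone livers at the end of day 1 (air only) and day 2 and at 18 h; points are arrays, the horizontal bar is the group mean and the whiskers 1 SD. The 18 h air arrays lie above all 5 day 2 air arrays for Hsph1, Hspb1, Stip1 and Hsp90ab1 and below them for Lrp6, and overlap them for Plpp2; ozone day 2 replicate 5 lies with the 18 h arrays for the 4 chaperone genes.

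Most of the other list members were higher by less, and none of them passed. Hspa8, the constitutive Hsp70, stood between 11.26 and 11.83 on day 2 and between 11.87 and 12.27 at 18 h, with no overlap and a difference of 0.51 ± 0.12 (limma adjusted p = 0.093). Cct2, a subunit of the chaperonin that folds actin and tubulin, differed by 0.25 ± 0.05 (adjusted p = 0.055), also with no overlap. Ahsa1, which activates the ATPase of Hsp90, differed by 0.29 ± 0.08 (adjusted p = 0.16), and Fkbp4, an Hsp90 partner of steroid receptors, by 0.36 ± 0.09 (adjusted p = 0.15). The stress-inducible Hspa1a differed by 0.28 ± 0.10 (adjusted p = 0.39) and its J-domain partner Dnajb1 by 0.23 ± 0.09 (adjusted p = 0.47). The mitochondrial chaperonin pair lay near 0, with Hspd1 at -0.02 ± 0.05 and Hspe1 at 0.06 ± 0.05, as did Hsf1, the transcription factor itself, at 0.06 ± 0.03. In all, 7 members had groups that did not overlap, each higher at 18 h, beside 0.573% of all genes. At an unadjusted p under 0.05 there were 13, each higher, beside 5% of all genes. The list was chosen with earlier results of these data known.

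**Figure D2:**
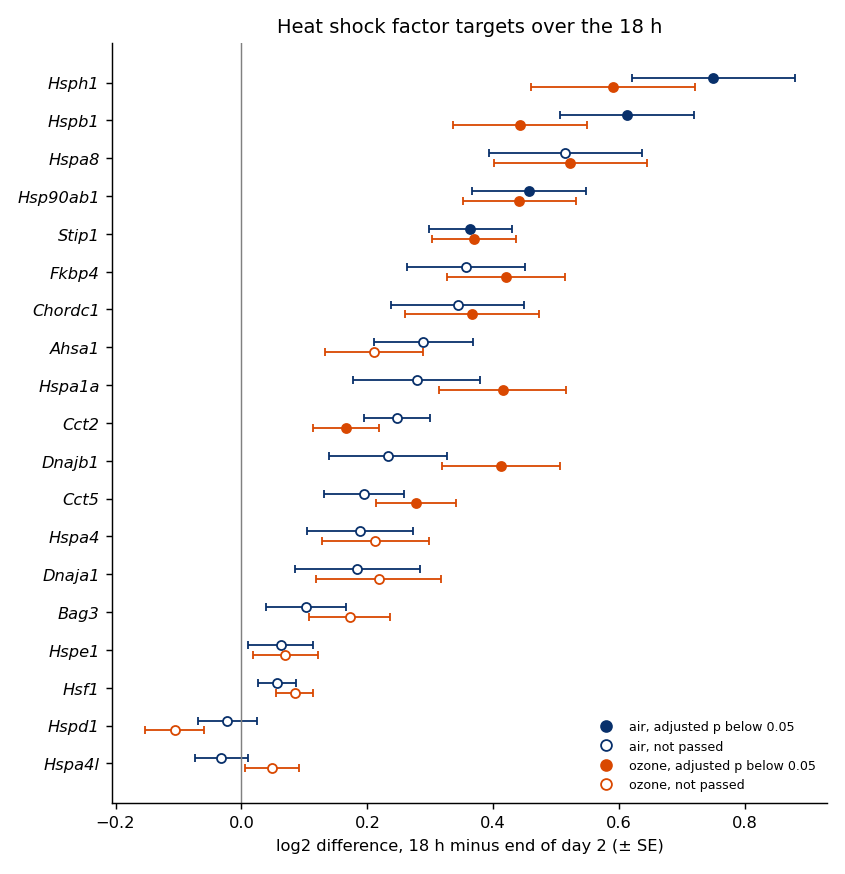
Log2 difference between 18 h and the end of day 2 for the 19 measured heat shock factor targets, in air livers (blue) and ozone livers (orange); points are limma estimates, whiskers 1 SE, filled where the adjusted p was below 0.05. In air 4 genes passed and in ozone 11, and 17 of the air estimates lie above 0.

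The cold-inducible genes were lower at 18 h without passing. Rbm3 stood at 8.39, 8.52, 8.19, 8.39 and 10.12 on day 2 and at 8.80, 7.97, 7.86, 8.01 and 8.27 at 18 h, a difference of -0.54 ± 0.28 (limma adjusted p = 0.69). Day 2 replicate 5 stood far above every other air array, and without it the difference was -0.19. It was level with ozone day 2 replicates 3 and 4 (10.11 and 10.02). Cirbp differed by -0.20 ± 0.15 (adjusted p = 0.87), and Srsf5, a splicing factor, by -0.08 ± 0.10 (adjusted p = 0.98).

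Outside the list of heat shock factor targets, 2 genes rose and 2 fell. Timm10b, a small chaperone of protein import into mitochondria, stood at 8.61, 8.53, 8.53, 8.42 and 8.70 on day 2 and at 8.90, 9.06, 8.87, 8.86 and 8.68 at 18 h, a rise of 0.32 ± 0.06 (limma adjusted p = 0.016). Only 18 h replicate 5 fell within the day 2 range. Plpp2, a phosphatase of lipid phosphates at the cell surface, stood at 8.48, 8.15, 8.28, 8.17 and 8.30 on day 2 and at 8.50, 8.70, 8.67, 8.89 and 8.47 at 18 h, and rose by 0.37 ± 0.07 (adjusted p = 0.042). Here 18 h replicates 1 and 5 lay next to day 2 replicate 1.

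Lrp6, a co-receptor for Wnt ligands, stood at 7.98, 8.03, 8.12, 8.15 and 7.93 on day 2 and at 7.77, 7.73, 7.79, 7.76 and 7.76 at 18 h. The groups did not overlap, and the fall was -0.28 ± 0.05 (limma adjusted p = 0.016). Pdlim5, a scaffold of the actin cytoskeleton, stood at 8.01, 7.98, 7.87, 7.96 and 7.69 on day 2 and at 7.63, 7.53, 7.70, 7.59 and 7.65 at 18 h, a fall of -0.28 ± 0.06 (adjusted p = 0.037), with an overlap at day 2 replicate 5 and 18 h replicate 3. The second probe set of Pdlim5 differed by -0.00 ± 0.05 (adjusted p = 1) and did not pass, nor did that of Timm10b pass (0.06 ± 0.03).

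A further 3 genes had a dimmer probe set past the threshold while their brightest did not pass, so those genes are uncertain. Plpp3, another lipid phosphate phosphatase, gave -0.60 ± 0.11 (limma adjusted p = 0.016) in that probe set and -0.17 ± 0.11 in the brightest. Mia2, which helps load large cargo for secretion, gave -0.45 ± 0.09 (adjusted p = 0.05 after rounding) and -0.16 ± 0.09. Pbrm1, a subunit of the chromatin remodeller PBAF, gave -0.30 ± 0.06 (adjusted p = 0.018) and 0.02 ± 0.10.

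Single arrays weighed on these calls. Counted over 19062 probe sets with 1 gene, 12 passed (0.063%), 7 higher and 5 lower. Leaving out 1 air array at a time gave 0 to 93. No probe set passed in limma without day 2 replicate 3, day 2 replicate 4 or 18 h replicate 2, where 1296, 1114 and 1114 probe sets had an unadjusted p under 0.05. Without day 2 replicates 1, 2 and 5 in turn the counts were 32, 7 and 35, and without 18 h replicates 1, 3, 4 and 5 they were 7, 11, 3 and 93. With each array left out, the rise of Hsph1 lay between 0.66 and 0.81, that of Hspb1 between 0.57 and 0.71 and the fall of Lrp6 between -0.31 and -0.25, and each of these genes passed in 7 of 10 fits. Stip1 passed in 5 fits, Plpp2 and Timm10b in 4, Pdlim5 in 3 and Hsp90ab1 in 2, with no change of sign. Fitted on the 10 air arrays alone, no probe set passed, with 1229 at an unadjusted p under 0.05.

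**Figure D3:**
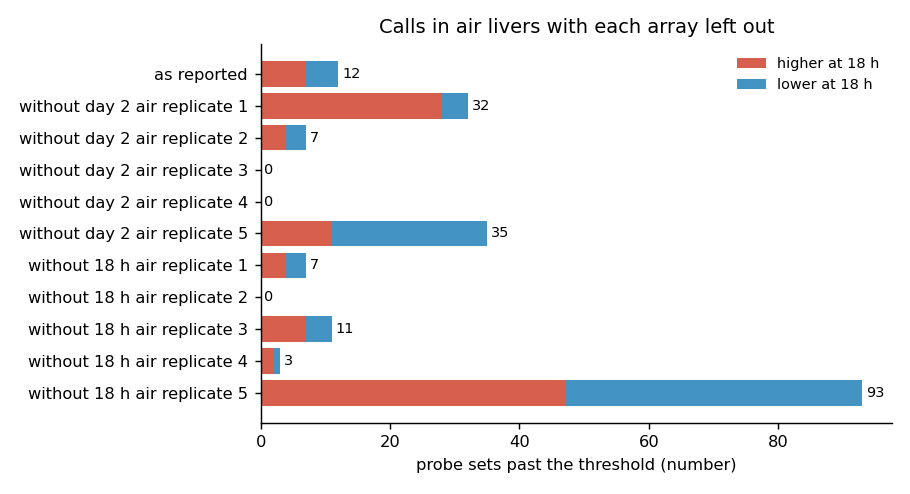
Number of probe sets past the adjusted threshold of 0.05 between 18 h and day 2 in air livers, as reported and with each of the 10 arrays left out; red bars are probe sets higher at 18 h and blue bars lower. The count is 12 with all arrays, 0 for 3 of the left-out arrays and 93 without 18 h replicate 5.

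Only 3 genes differed by at least 2-fold, all of them lower at 18 h, and 0 of them passed; they are named after their values were seen. Egr1, an immediate early transcription factor, stood at 9.92, 10.27, 9.93, 9.84 and 11.13 on day 2 and at 7.34, 9.79, 8.24, 8.37 and 8.72 at 18 h. The groups did not overlap, but the spread within them was wide and the difference was -1.73 ± 0.66 (limma adjusted p = 0.43). Sds, the serine dehydratase that feeds serine to gluconeogenesis, stood at 10.42, 11.61, 11.85, 11.34 and 12.16 on day 2 and at 9.41, 10.22, 9.55, 10.22 and 11.26 at 18 h, a difference of -1.35 ± 0.38 (adjusted p = 0.21). Stac3, known from muscle calcium release, differed by -1.01 ± 0.33 (adjusted p = 0.31).

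No clock gene passed. Of 28 measured genes in 3 clock lists (activators, repressors and output), 14 were higher and 14 lower, and the median difference was 0.00. By list, 3 of 4 activators (median 0.12), 3 of 11 repressors (median -0.06) and 8 of 13 output genes (median 0.02) were higher. The pooled split mixes activators with repressors, so it does not show an unchanged clock. Of all 28 genes, 4 were higher and 2 lower at an unadjusted p under 0.05, beside 5% higher and 3.27% lower over all genes. Bmal1, the activator, stood at 7.52, 7.42, 7.27, 7.22 and 7.58 on day 2 and at 7.85, 7.64, 7.75, 7.45 and 7.30 at 18 h. The groups overlapped, with 18 h replicates 4 and 5 among the day 2 arrays, and the difference was 0.20 ± 0.09 (limma adjusted p = 0.54). Its partner Npas2 differed by 0.18 ± 0.09 (adjusted p = 0.65), Clock by -0.03 ± 0.04 and the orphan receptor Rora by 0.05 ± 0.10.

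Nr1d1, the REV-ERB-alpha repressor of Bmal1, stood at 8.27, 8.40, 8.53, 8.50 and 8.29 on day 2 and at 7.94, 7.73, 7.79, 8.46 and 8.43 at 18 h. Replicates 1, 2 and 3 of 18 h lay below day 2 and replicates 4 and 5 within it, a difference of -0.33 ± 0.11 (limma adjusted p = 0.34). Nr1d2 had a difference of -0.25 ± 0.13 (adjusted p = 0.66). The promoter of Bmal1 is shown because it carries the element that REV-ERB and ROR proteins bind, with that element, searched as TAGGTCA on both strands and held by 2.63% of all promoters, in capitals. It lies at -16 to -10 from the start site, on the forward strand of chr1:176766078-176766377.
Bmal1: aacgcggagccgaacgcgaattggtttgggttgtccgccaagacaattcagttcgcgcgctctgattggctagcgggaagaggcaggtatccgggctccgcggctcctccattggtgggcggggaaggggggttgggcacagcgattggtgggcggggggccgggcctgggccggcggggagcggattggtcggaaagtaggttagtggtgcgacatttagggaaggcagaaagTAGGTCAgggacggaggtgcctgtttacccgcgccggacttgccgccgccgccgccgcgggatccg

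Dbp, a transcription factor that passes the rhythm to metabolic genes, stood at 8.13, 8.94, 9.25, 8.93 and 8.15 on day 2 and at 8.05, 7.42, 7.48, 8.39 and 8.93 at 18 h, a difference of -0.62 ± 0.26 (limma adjusted p = 0.49) with overlap. Without the 3 arrays apart it was -1.05 (adjusted p = 0.05 after rounding, not past the threshold), and 0 clock genes passed. Its antagonist Nfil3 differed by 0.43 ± 0.19 (adjusted p = 0.58), with 18 h replicate 2 at 10.09 and the other 18 h arrays between 8.38 and 9.11, and by 0.16 without that array. The period and cryptochrome repressors lay near 0, with Per1 at -0.07 ± 0.08, Per2 at -0.06 ± 0.15, Per3 at 0.01 ± 0.04, Cry1 at 0.12 ± 0.09 and Cry2 at -0.02 ± 0.05. Bhlhe40 and Bhlhe41, repressors that compete at E-boxes, differed by -0.15 ± 0.23 and -0.06 ± 0.06, and the clock kinases Csnk1d and Csnk1e by -0.03 ± 0.08 and 0.03 ± 0.03.

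Among clock outputs, Alas1, the rate-limiting enzyme of heme synthesis, differed by 0.56 ± 0.25 (limma adjusted p = 0.58), Tspan4 by 0.13 ± 0.06 (adjusted p = 0.59) and Tfrc, the transferrin receptor, by 0.22 ± 0.13. The deadenylase Noct differed by -0.37 ± 0.31, the P450 partner Por by 0.29 ± 0.25, Nampt of NAD synthesis by 0.21 ± 0.18 and the ubiquitin protease Usp2 by -0.09 ± 0.25. Single arrays moved some of these values: without day 2 replicate 5 the difference was 0.58 for Por and 0.04 for Nampt, and with each array left out in turn Por lay between 0.14 and 0.58 and Nampt between 0.03 and 0.34, with neither past the threshold. The factors Tef (-0.04 ± 0.07) and Hlf (-0.06 ± 0.14), the kinase Wee1 (0.01 ± 0.04) and the glycogen synthase Gys2 (0.02 ± 0.13) lay near 0.

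**Figure D4:**
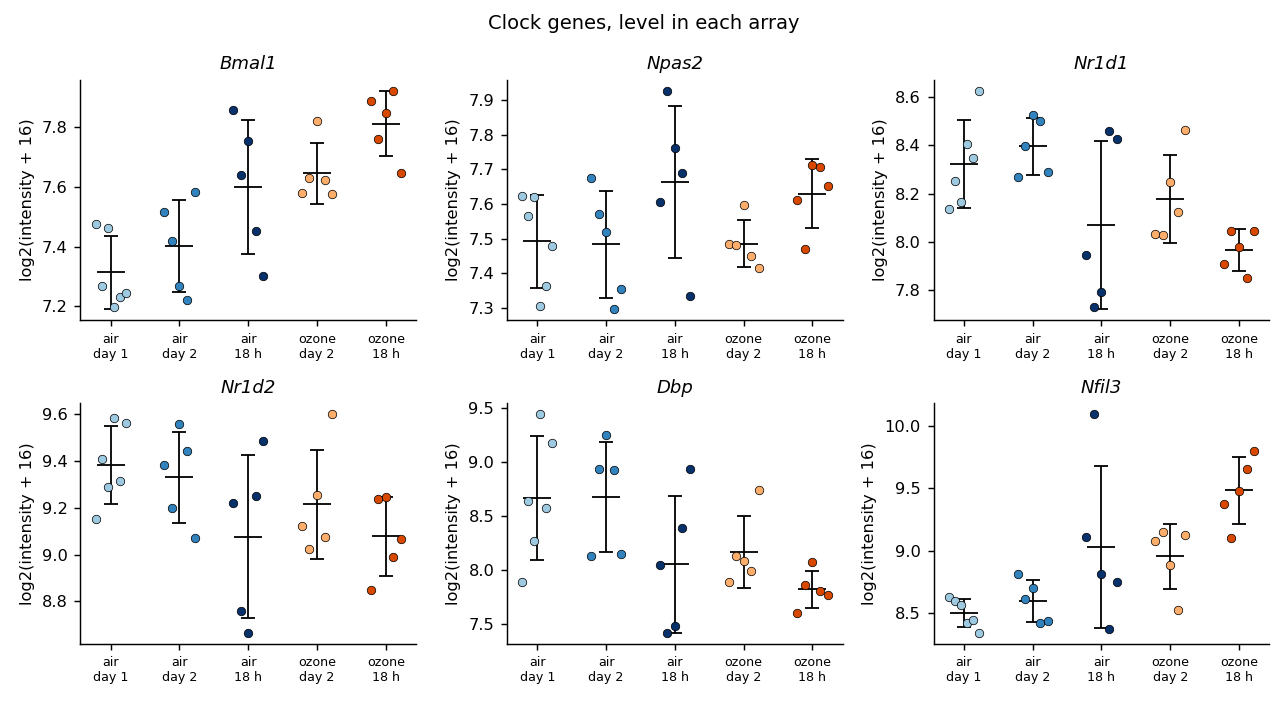
Level in each array, log2(intensity + 16), of 6 clock genes in air and ozone livers; points are arrays, the horizontal bar is the group mean and the whiskers 1 SD. In air the 18 h arrays overlap the day 2 arrays for all 6 genes, and for Nr1d1 replicates 1, 2 and 3 of 18 h lie below the day 2 range.

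Genes of cholesterol synthesis and uptake were lower at 18 h as a group, with none past the threshold. Of 20 measured genes 19 were lower and the median was -0.25. Of these, 7 were lower at an unadjusted p under 0.05, beside 3.27% of all genes. Hsd17b7, which acts late in cholesterol synthesis, stood at 8.35, 8.60, 8.59, 8.54 and 8.62 on day 2 and at 7.85, 7.87, 8.01, 7.95 and 8.44 at 18 h. Only 18 h replicate 5 reached the day 2 range, and the difference was -0.52 ± 0.13 (limma adjusted p = 0.12). Stard4, a carrier of cholesterol between membranes, differed by -0.42 ± 0.12 (adjusted p = 0.18), Fdps, which makes farnesyl diphosphate, by -0.38 ± 0.15 (adjusted p = 0.47) and Cyp51, the lanosterol demethylase, by -0.40 ± 0.15 (adjusted p = 0.42).

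The fit without the 3 arrays apart, picked after their values were seen, is no independent test. In it the median of these 20 genes was -0.49 and 6 fell, beside 118 of all genes falling (0.878%). Stard4 then fell by -0.63 (limma adjusted p = 0.0043), Fdps by -0.66 (adjusted p = 0.0058) and Nsdhl, a sterol dehydrogenase, by -0.49 (adjusted p = 0.011). Day 2 replicate 5 and 18 h replicate 5 were at opposite ends from the rest of their groups: Fdps stood at 10.82 in the first and 11.65 in the second, where the other day 2 arrays lay between 11.29 and 11.62 and the other 18 h arrays between 10.56 and 10.90. Leaving out 18 h replicate 5 alone gave 3 falls, and leaving out any other single air array gave 0.

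Fatty acid and triglyceride synthesis showed a similar picture, with 16 of 23 genes lower, 0 past the threshold and a median of -0.18. Fasn, the fatty acid synthase, stood at 9.74, 9.91, 10.11, 10.22 and 8.69 on day 2 and at 8.83, 8.42, 9.05, 9.15 and 10.23 at 18 h, a difference of -0.60 ± 0.25 (limma adjusted p = 0.5). The groups overlapped through replicate 5 of each. Srebf1, the factor that drives this pathway, differed by -0.55 ± 0.23 (adjusted p = 0.52), Acly, which makes cytosolic acetyl-CoA from citrate, by -0.56 ± 0.29 (adjusted p = 0.7), Acss2, which makes it from acetate, by -0.57 ± 0.19 (adjusted p = 0.33) and Mid1ip1, a partner of acetyl-CoA carboxylase, by -0.58 ± 0.18 (adjusted p = 0.27). Without the 3 arrays apart 7 fell, among them Srebf1 by -1.21 (adjusted p = 0.00095), Fasn by -1.12 (adjusted p = 0.0022) and Acly by -1.22 (adjusted p = 0.0012). Here too that fit is no independent test.

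Genes of fatty acid oxidation and ketogenesis went the other way, with 19 of 24 higher, 0 past the threshold and a median of 0.14. Of these, 9 were higher at an unadjusted p under 0.05, beside 5% of all genes. Vnn1, a pantetheinase and PPAR-alpha target, stood at 8.37, 7.87, 7.98, 7.96 and 8.24 on day 2 and at 8.62, 9.19, 8.79, 8.88 and 8.25 at 18 h, a difference of 0.66 ± 0.15 (limma adjusted p = 0.062). Here too 18 h replicate 5 alone lay within day 2. Acot2, a mitochondrial acyl-CoA thioesterase, differed by 0.53 ± 0.17 (adjusted p = 0.27), and the auxiliary enzymes of unsaturated fat oxidation Eci1 and Ech1 by 0.52 ± 0.20 and 0.48 ± 0.19 (adjusted p = 0.44 for both). Cpt1a, the gate of mitochondrial entry, was lower by a difference of -0.30. Without the 3 arrays apart 10 rose, beside 75 genes in all (0.558%), with Vnn1 at 0.91 (adjusted p = 0.0022), Ech1 at 0.88 (adjusted p = 0.0007) and a median of 0.29. The fit without these arrays describes only those that remain and is no independent test. The part of array differences in these lipid results was not tested beyond these counts.

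**Figure D5:**
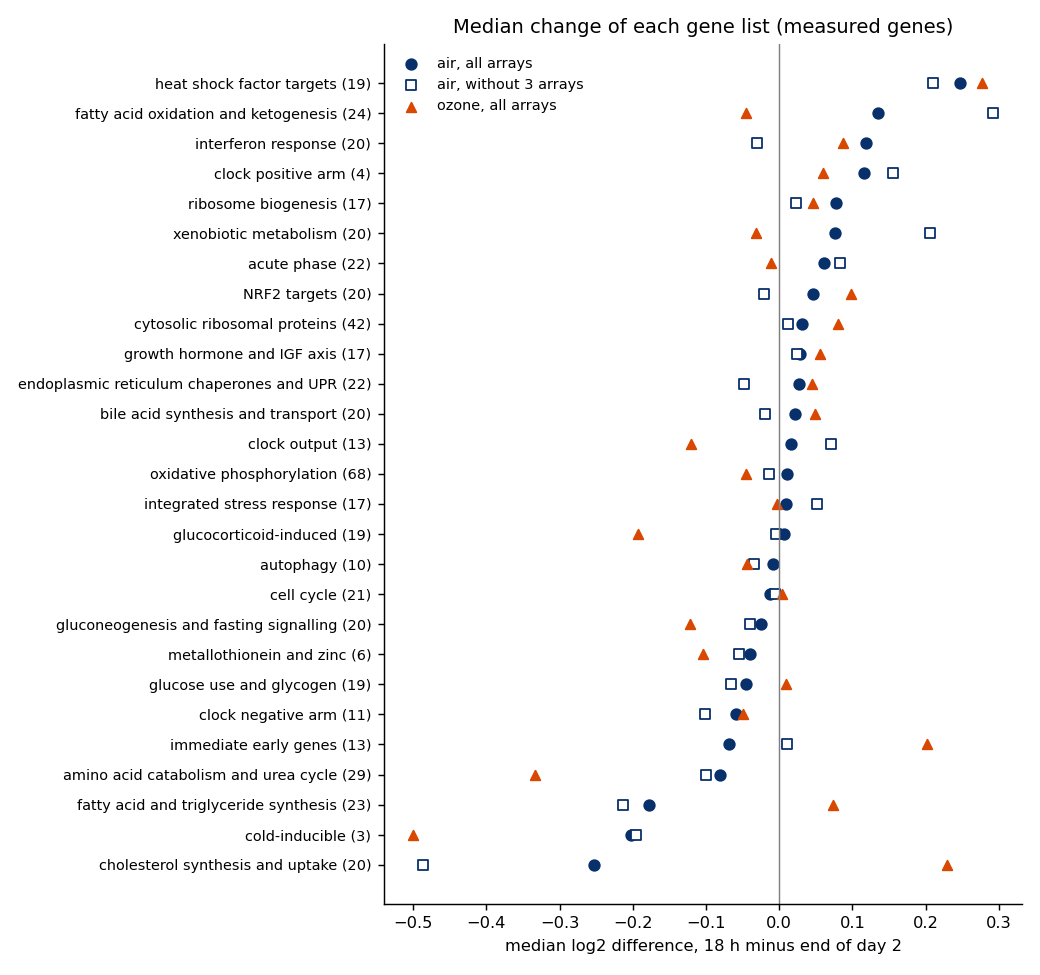
Median log2 difference between 18 h and day 2 of each gene list, with the number of measured genes in brackets; filled circles are air livers with all arrays, open squares air livers without the 3 arrays apart and triangles ozone livers. The highest air median is that of heat shock factor targets (0.25) and the lowest that of cholesterol synthesis and uptake (-0.25).

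In amino acid breakdown and the urea cycle 23 of 29 genes were lower, with 0 past the threshold and a median of -0.08. Of these, 8 were lower at an unadjusted p under 0.05, beside 3.27% of all genes. Slc38a4, an amino acid transporter of hepatocytes, stood at 12.28 to 12.51 on day 2 and 11.94 to 12.23 at 18 h without overlap, a difference of -0.26 ± 0.07 (limma adjusted p = 0.13). In xenobiotic metabolism 18 of 20 were higher, with a median of 0.08. At an unadjusted p under 0.05, 7 were higher, beside 5% of all genes. Nr1i3, the receptor CAR that drives drug-metabolising genes, stood at 8.31, 8.18, 8.49, 8.49 and 8.51 on day 2 and at 8.73, 8.77, 9.37, 9.28 and 8.29 at 18 h. Its difference was 0.49 ± 0.12 (adjusted p = 0.13). Without the 3 arrays apart, a fit that is no independent test, it rose by 0.77 (adjusted p = 0.00049).

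Bile acid synthesis and transport had no common direction, with 11 of 20 higher and a median of 0.02. The canalicular exporters Abcg5 and Abcb4, which move sterols and phospholipid into bile, differed by 0.30 ± 0.07 (limma adjusted p = 0.067) and 0.38 ± 0.09 (adjusted p = 0.1). In the fit without the 3 arrays apart, which is no independent test, both rose, Abcg5 by 0.37 (adjusted p = 0.011) and Abcb4 by 0.52 (adjusted p = 0.0079). Cyp8b1, which makes cholic acid, differed by -0.57 ± 0.15 (adjusted p = 0.14). In gluconeogenesis and fasting signalling 13 of 20 were lower, with a median of -0.02, among them G6pc1, the glucose-6-phosphatase, at -0.56 ± 0.22 (adjusted p = 0.44), which was low in 18 h replicates 1 and 2 (10.95 and 10.57) and between 11.88 and 12.19 in the other 8 arrays. Creb3l3, a fasting-induced factor, differed by 0.29 ± 0.10 (adjusted p = 0.33) with all arrays, and rose by 0.50 (adjusted p = 0.0034) without the 3 arrays apart. Glucocorticoid-induced genes divided into 10 higher and 9 lower, with Fkbp5 at 0.39 ± 0.18 (adjusted p = 0.61).

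The remaining lists had no member past the threshold with all arrays. Of 22 chaperones of the endoplasmic reticulum and its stress response 12 were higher (median 0.03, with Creld2 at 0.35 ± 0.12, limma adjusted p = 0.36), and none of them passed. NRF2 targets of the antioxidant response had 12 of 20 higher (median 0.05), with Txnrd1 at 0.28 ± 0.08 (adjusted p = 0.17) and no overlap between groups. In the interferon response 16 of 20 were higher (median 0.12), but the median without the 3 arrays apart was -0.03. The acute phase list had 16 of 22 higher (median 0.06), cytosolic ribosomal proteins 33 of 42 (median 0.03), ribosome biogenesis 13 of 17 (median 0.08) and oxidative phosphorylation 36 of 68 (median 0.01). The integrated stress response had 9 of 17 higher (median 0.01), and further lists were the growth hormone and IGF axis (11 of 17, median 0.03), autophagy (5 of 10, median -0.01), the cell cycle (7 of 21, median -0.01), metallothionein and zinc genes (1 of 6, median -0.04) and immediate early genes (4 of 13, median -0.07). In glucose use and glycogen 6 of 19 were higher (median -0.05), and Pgd, of the pentose phosphate pathway, differed by -0.26 ± 0.12 (adjusted p = 0.58). Of these 19 genes 4 fell without the 3 arrays apart, beside 0.878% of all genes, and Pgd fell by -0.52 (adjusted p = 0.0007). In that fit, which is no independent test, 1 gene each rose and fell in the integrated stress response and 1 rose in ribosome biogenesis.

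Markers of other liver cells were checked, since in bulk tissue fewer cells of a type and less RNA per cell cannot be told apart. Kupffer cell and macrophage markers were higher for 9 of 10 genes (median 0.12), and their summed intensity was 5391 to 8362 on day 2 and 6734 to 7577 at 18 h, so the ranges overlapped. Endothelial markers were higher for 9 of 9 (median 0.12), with sums of 3005 to 3545 and 3461 to 4052. Neutrophil and monocyte markers summed to 919 to 977 on day 2 and 933 to 1265 at 18 h, the highest value being that of replicate 2, in which S100a8 (7.94) and S100a9 (8.49) stood above all other arrays of the comparison. Lymphocyte (2 of 13 higher, median -0.03), stellate cell (6 of 12, median 0.00), cholangiocyte (2 of 6, median -0.04), erythroid (0 of 4, median -0.03) and pancreas or adipose markers (5 of 11, median -0.00) lay near 0, and no marker passed. Among the dimmest 25% of probe sets were 6 of 11 pancreas or adipose, 4 of 7 neutrophil and monocyte and 3 of 13 lymphocyte markers. For such dim markers a difference near 0 does not show stable cell content. The part of all these markers in the results was not tested.

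The ozone livers over the same 18 h give a second set of 10 arrays, none shared with the air livers. In them 1161 of 13437 genes passed (8.64%), against 8 in air, and 731 rose (5.44%), 11 of them among the 19 heat shock factor targets. The median size of the difference was 0.04 in both exposures. All 8 genes called in air had the same sign in ozone livers, and 6 of them passed there. Hsph1 rose by 0.59 ± 0.13 (limma adjusted p = 0.0044) in ozone livers, Hspb1 by 0.44 ± 0.11 (adjusted p = 0.0084), Stip1 by 0.37 ± 0.07 (adjusted p = 0.00076) and Hsp90ab1 by 0.44 ± 0.09 (adjusted p = 0.0024). In ozone day 2 replicate 5, Hsph1 stood at 9.04, level with the 18 h ozone arrays (8.84 to 9.04), while the highest of the other 4 day 2 ozone arrays stood at 8.44. Over all 13437 genes that array correlated at -0.24 with its own group and 0.66 with the ozone livers of 18 h. It was kept in the ozone values given here. The differences between the air and ozone changes were 0.16 ± 0.18 for Hsph1, 0.17 ± 0.15 for Hspb1, -0.01 ± 0.09 for Stip1 and 0.02 ± 0.13 for Hsp90ab1. Across all 13437 genes the air and ozone differences correlated at 0.41, given as a description since genes are not independent. The same sign in both exposures was found for 59.0% of all 13437 genes and for 86.3% of the 1161 genes called in ozone livers.

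Whether the change in air differed from that in ozone was tested gene by gene. No probe set passed in limma (0%), with 1337 at an unadjusted p under 0.05. Without the 3 arrays apart 598 probe sets passed, 489 genes by the brightest probe set (3.64%), and leaving out day 2 air replicate 5 alone gave 183, leaving out ozone day 2 replicate 5 alone 89. Of the 3 arrays, 2 were picked for lying nearest to an ozone group and they were removed from the air side alone, so those counts are no test of a difference between the exposures and no gene is read from them. With all arrays the medians of the cholesterol list were -0.25 in air and 0.23 in ozone, and the air change of Acly less its ozone change was -1.27 ± 0.41 (limma adjusted p = 0.47).

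Against the air livers of day 1, which share the 18 h arrays with the comparison above and were harvested at the end of an exposure as on day 2, Hsph1 was higher at 18 h by 0.63 (limma adjusted p = 0.0047), Hspb1 by 0.47 (adjusted p = 0.011), Stip1 by 0.27 (adjusted p = 0.023) and Hsp90ab1 by 0.31 (adjusted p = 0.063). The 6 day 1 arrays of Hsph1 lay between 8.13 and 8.57, below every 18 h array. Lrp6 differed by -0.38 (adjusted p = 1e-05), Pdlim5 by -0.37 (adjusted p = 0.00014) and Timm10b by 0.30 (adjusted p = 0.0021), while Plpp2 differed by 0.21 (adjusted p = 0.15). Against day 1, 143 genes passed (1.06%), 52 higher (0.387%) and 91 lower (0.677%), and 4 of the 19 heat shock factor targets rose. Among clock outputs 2 rose, Tspan4 by 0.27 (limma adjusted p = 0.0096) and Tfrc by 0.53 (adjusted p = 0.023). Medians against day 1 were -0.16 for Kupffer cell markers, -0.09 for interferon genes and 0.05 for amino acid breakdown. All of these had the opposite sign against day 2. Those of fatty acid synthesis (-0.03), the cholesterol list (-0.21) and fatty acid oxidation (0.15) kept their sign. The median over all genes against day 1 was 0.01. The median of fatty acid synthesis lay near it, beside -0.18 against day 2.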

How the data were processed

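Total liver RNA was hybridised to Affymetrix rat arrays. The deposited intensity values, 31139 probe sets between 30.5 and 15558, were summarised by the authors; the submitters' processing notes name PLIER and Affymetrix Expression Console, with no versions given in the sources used here. Background correction and scaling are likewise not given, and nonspecific probes still read 85.2 to 92.0 units, which compresses differences of dim genes. Left out were 97 control probe sets, 11407 without and 573 with several genes, leaving 19062. The log2 values, computed as log2(deposited intensity + 16), were fitted with limma 3.58.1 in R 4.3.3 (lmFit, eBayes with trend), with a mean for each of 6 groups over 32 arrays, two-sided, Benjamini-Hochberg over all 19062, threshold 0.05. The brightest probe set stood for its gene. No probe set was filtered for low values. The procedure was tested on simulated arrays for the 18 h against day 2 contrast, with 100 random probe sets changed by each size. It called 95% of those changed by 0.5 and 99% of those changed by 1 among 19062, and 10 unchanged ones. The simulated noise was normal and independent between arrays, with no array lying apart. These shares check the code and are not the power of the real comparison, so a gene that did not pass is not shown to be unchanged. Promoter sequences came from a RefSeq table (GRCr8), and the search for heat shock elements was added after the results were seen. Members, gene lists and motifs were chosen with earlier results of these data known. Genes named are the largest calls on 1 side of the day 2 mean, all clock genes, and for each other list those with the smallest p; others were named after their values were seen. Replicate numbers do not pair the samples. Alternatives tried were the offset, a filter on dim probe sets, 1 probe set per gene, quantile normalization, array weights, no trend, only the arrays of the contrast, a replicate block, both end-of-exposure air groups as reference, and leaving out arrays.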

Additional observations from a re-analysis of the deposited data

Results flagged for a closer look

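For 109 named genes, the highest or lowest array was compared with the rest of its group on day 2 and at 18 h by Dixon's ratio at the 95% level, and 18 of 218 group values were marked, in 17 genes; chance alone marks about 1 in 20. Day 2 replicate 5 held 8 of them. It was far below the other day 2 arrays for Hsd17b2 (9.76 beside 11.96 to 12.29), Amacr (11.39), Mid1ip1 (9.74) and Mpdz (7.67), and far above them for Rbm3 (10.12 beside 8.19 to 8.52), Fkbp5 (8.66), Asap3 (7.92) and Slc38a4 (12.51). Replicate 2 of 18 h held 5 and was far above its group for Gadd45a (10.37 beside 8.31 to 8.47), Irf1 (9.47), Klf6 (9.68), S100a8 (7.94) and S100a9 (8.49). Replicate 5 of 18 h held 3, being high for Pgd (9.13) and Hsd17b7 (8.44) and low for Creb3l3 (10.87). The remaining marks were Cry1 in 18 h replicate 1 (8.30, high) and Hsd17b7 in day 2 replicate 1 (8.35, low). Levels are log2(intensity + 16).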

How the results depend on the processing

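The 12 probe sets past the threshold became 24 with dim probe sets left out, 20 with no trend, 56 after quantile normalization, 783 with array weights, 233 with both end-of-exposure air groups as reference, and 0 with only the 10 arrays of the contrast in the fit. Offsets of 1 and 64, 1 probe set per gene and a replicate block gave 11, 13, 8 and 10. Leaving out 1 array gave 0 to 93 and, chosen after seeing the data, leaving out the 3 arrays apart gave 265 and those with ozone day 2 replicate 5 gave 365. For the difference between the air and ozone changes, 0 became 1 with dim probe sets left out, 1 with 1 probe set per gene, 989 with array weights, 598 without the 3 arrays and 1224 without the 4, with 0 to 183 when 1 array was left out and 0 with a replicate block. Samples with the same replicate number did not deviate together (correlations of deviations from -0.60 to 0.26), the lowest being replicate 5, and 2 of 10 arrays correlated best with their own number at the other time, so the block has no basis in pairing. Of 176 results of the 8 called genes under these settings, 53 missed the threshold, and of 2214 results of 101 other named genes, 106 passed it. A reversal was counted only where the sign changed and the gene passed in either fit, and 0 were found. Genes that did not pass could change sign uncounted. With each air array left out, Rora lay between -0.04 and 0.11 and Usp2 between -0.27 and 0.04. The cause of these shifts was not tested. Array weights favoured day 2 replicate 3 (4.21) and 18 h replicate 4 (3.21) and lowered day 2 replicate 5 (0.32). Signal near that of the nonspecific probes limits what dim genes can show.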

Other observations

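The 5 genes whose levels correlated most positively with Bmal1 over all 32 arrays, which include ozone livers and share group differences, were Clpx (0.90), Lgalsl (0.88), Lnx2 (0.85), Ext1 (0.83) and Asap3 (0.82). The 5 that correlated most negatively were Jade1 (-0.88), Gch1 (-0.88), Hsd17b2 (-0.86), Mpdz (-0.84) and Amacr (-0.84). Clpx, a chaperone subunit of a mitochondrial protease, differed by 0.29 ± 0.14 between 18 h and day 2 in air (limma adjusted p = 0.6), Lgalsl by 0.62 ± 0.18 (adjusted p = 0.23) and Jade1 by -0.27 ± 0.10 (adjusted p = 0.37). Hsd17b2, which inactivates sex steroids, stood at 11.96, 12.07, 12.21, 12.29 and 9.76 on day 2 and at 10.32, 10.55, 10.15, 11.54 and 12.15 at 18 h. Its difference was -0.72 ± 0.37 (adjusted p = 0.68) with all arrays and -1.39 (adjusted p = 0.0083) without the 3 arrays apart. The second fit is no independent test, since those arrays were picked after their values were seen. In the growth hormone axis, the feedback inhibitor Socs2 differed by -0.45 ± 0.19 (adjusted p = 0.53).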
